A study of Mus musculus with 8 samples.

Results

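The genes examined here encode the machinery with which phagocytes and dendritic cells (DCs) make superoxide and nitric oxide, and the enzymes that take superoxide away. They are *Cybb*, *Cyba*, *Ncf1* and *Ncf4*, which encode subunits of the phagocyte NADPH oxidase, *Nos2*, which encodes inducible nitric oxide synthase (iNOS), and *Sod1* and *Sod2*, which encode the cytosolic and the mitochondrial superoxide dismutase. These 7 of the 23356 genes in the table were picked by name for their function, with earlier results of these data known. RNA-seq was performed on bone marrow-derived DCs (BMDCs) from wild-type (WT) mice and from mice lacking *Arhgef2*, the gene for the microtubule-bound guanine nucleotide exchange factor GEF-H1 (GEF-H1-/- or knockout, titled Arhgef2-KO in the labels), all on a C57BL/6 background (C57BL/6N in the study's methods). Cells of each genotype were left untreated or were given ansamitocin-P3 (AP3), a tubulin-binding compound of the maytansine type that makes microtubules come apart, at 100 nM for 5 h. The labels give no age or sex of the mice. For all experiments the study's methods give an age range in weeks and sex-matched mice of both sexes, without assigning them to libraries. The labels also do not say whether the libraries of a group came from separate animals or cultures.

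Each of the 4 groups comprised 2 libraries, 8 in all, and the authors' program combined both libraries of a group into a single FPKM per gene. FPKM counts fragments per kilobase of transcript, scaled to the library's mapped fragments. This adjusts for transcript length and library size, but does not by itself make groups comparable. The summed FPKM ran from 599331 in untreated GEF-H1-/- to 739523 in AP3-treated WT DCs. Factors from the median ratio of genes across groups ran only from 0.995 to 1.005, and the main values were not rescaled by them. Each FPKM carries the lower and upper bound of a 95% interval, which is used as the error here. The FPKM of the 7 genes lay within their intervals in all groups, but 165 of the 11397 genes tested had an FPKM outside its own interval in some group, and for those genes, *Cebpb* and *S100a8* among them, the interval is of little use as an error. No value of a single library was used, so there is no SD, no n and no p-value, and no difference was tested against the spread between replicates. A change is given as the log2 of the ratio between the FPKM + 1 of both groups, a scale that shrinks the changes of genes at low FPKM, and a gene counts as having risen or fallen where it was over 1 or under -1, that is past 2-fold. As a second, looser reading, the 95% intervals of both groups were checked for overlap. Finally, the error of the log2 change was propagated from the intervals, and the resulting 95% range was checked for whether it lay off 0. All 7 genes reached 1 FPKM in some group, as did 11397 genes in the table, over which background shares are given.

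All cells were grown for 6 days in GM-CSF and IL-4, each at 10 ng/ml, and floating and loosely attached cells were collected, with no sort described, so a culture can hold other myeloid cells beside DCs. All 7 measured DC markers were above 0 in every group, and their summed level was 4452 FPKM in untreated WT, 5726 in AP3-treated WT, 3739 in untreated GEF-H1-/- and 4051 in AP3-treated GEF-H1-/- DCs. Most of each sum was *Cd74* (3676, 4935, 3073 and 3331 FPKM in that order), and with the drug in WT DCs 4 of the 7 markers were lower, 3 of them (*Flt3*, *Cd209a* and *Ciita*) with intervals apart. All 9 measured neutrophil markers were above 0 as well and summed to 32555, 38466, 21993 and 22403 FPKM in the same order. Most of each sum was *S100a8* (19401, 23110, 10856 and 11199 FPKM) together with *S100a9* (10678, 12394, 10004 and 10130 FPKM). The FPKM of *S100a8* lay above the upper bound of its interval in every group. *Arhgef2* itself was at 42.3 (untreated) and 45.9 FPKM (AP3-treated) in WT and at 4.59 and 4.16 FPKM in knockout DCs, in the direction of the group labels.

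The phagocyte NADPH oxidase moves electrons from NADPH across a membrane onto oxygen, which gives superoxide. Its catalytic core is a membrane heterodimer of the *Cybb* and *Cyba* products, and it becomes active when cytosolic proteins, those of *Ncf1* and *Ncf4* among them, and a Rac GTPase join it. In DCs the oxidase is known for its effect on phagosomal pH and on antigen processing. iNOS makes nitric oxide from arginine, needs tetrahydrobiopterin as a cofactor, and is controlled mostly at the level of transcription, classically by NF-kappaB and interferon signals. Superoxide dismutases turn superoxide into hydrogen peroxide, which catalase, glutathione peroxidases and peroxiredoxins remove, and *Sod2* is a textbook NF-kappaB target.

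The 250 bases before the start of *Cybb* and of *Sod2* are shown because both genes are commonly cited as targets of the factors whose motifs were searched and because the results below turn on how little either gene moved with the drug. Sequences are from RefSeq in GRCm38.p6, which covers 5 of the 7 genes (*Cyba*, *Cybb*, *Ncf1*, *Sod1* and *Sod2*), and are printed 5′ to 3′ on the strand of the gene. Capitals mark every match, on either strand, to an NF-kappaB site, to TATAAA (found in many core promoters), to TGANTCA (an AP-1 site), to TTCNNNGAA (a STAT site), to GAGGAA (a core of PU.1 sites) or to GAAANNGAA (an interferon-response element core).
Cybb promoter, chrX:9469325-9469574, minus strand: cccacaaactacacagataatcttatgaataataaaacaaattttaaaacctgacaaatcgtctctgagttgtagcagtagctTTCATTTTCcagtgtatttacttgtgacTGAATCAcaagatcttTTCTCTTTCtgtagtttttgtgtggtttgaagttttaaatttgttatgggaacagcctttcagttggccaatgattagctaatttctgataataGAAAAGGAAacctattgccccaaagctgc
Sod2 promoter, chr17:13007589-13007838, plus strand: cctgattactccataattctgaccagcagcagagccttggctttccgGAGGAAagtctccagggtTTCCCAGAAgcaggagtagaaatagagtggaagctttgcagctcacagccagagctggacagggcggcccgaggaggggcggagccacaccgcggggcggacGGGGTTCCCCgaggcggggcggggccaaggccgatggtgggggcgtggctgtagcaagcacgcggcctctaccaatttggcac

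The *Cybb* window held 3 matches to GAAANNGAA, at 167 to 159, 123 to 115 and 29 to 21 bases before the start, and 1 match to TGANTCA at 139 to 133 bases. The *Sod2* window held 1 NF-kappaB match, GGGGTTCCCC at 83 to 74 bases before the start, together with 1 match to TTCNNNGAA at 185 to 177 bases and 1 to GAGGAA at 203 to 198 bases. No 2 of these matches overlapped. *Ncf1* held a match to TTCNNNGAA at 88 to 80 bases and 1 to GAAANNGAA at 82 to 74 bases, which overlap, *Sod1* held TATAAA at 37 to 32 bases, and *Cyba* held none of the 6 motifs. Of all 32851 windows of this length, 3.9% held an NF-kappaB match, 12.4% TATAAA, 6.75% TGANTCA, 7.02% TTCNNNGAA, 23.3% GAGGAA and 7.13% GAAANNGAA. These are matches of letters and do not show that a factor binds there.

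The levels of the 7 genes spanned a wide range and kept nearly the same order in every group. *Cyba* was the highest in all 4 groups and stood apart from the next gene by its interval. *Sod1* and *Ncf1* came next with overlapping intervals, then *Cybb* and *Ncf4*, again overlapping each other, then *Sod2*, and *Nos2* was the lowest. The only neighbours that changed places were *Sod1* with *Ncf1* and *Cybb* with *Ncf4*, whose intervals overlapped each time.

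**Figure D1:**
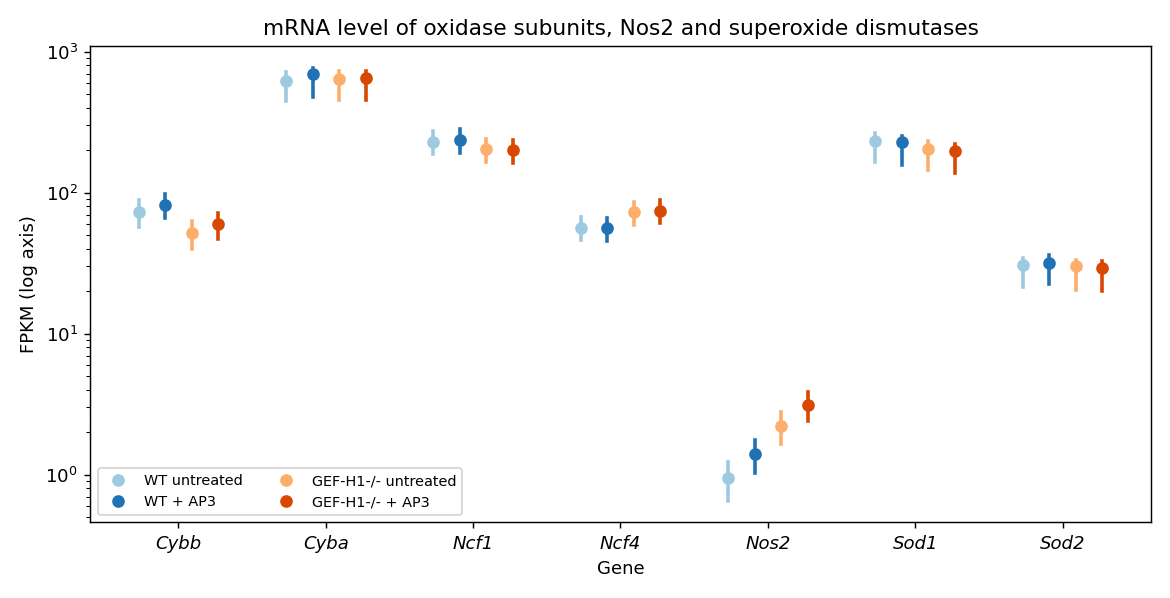
Level of each gene in FPKM on a log axis in untreated and ansamitocin-P3 (AP3)-treated WT and GEF-H1-/- DCs. Points are the authors' group values, bars are their 95% intervals, and *Nos2* is the gene whose WT and GEF-H1-/- intervals do not overlap.

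With the drug, none of the 7 genes passed 2-fold in either genotype. Over all genes tested, 4.94% passed 2-fold with the drug in WT DCs (417 higher, 146 lower) and 1.08% in GEF-H1-/- DCs (92 higher, 31 lower). The median log2 change of the 7 genes was 0.05 in WT and 0.03 in knockout DCs, beside medians of 0.001 and -0.01 over all genes. No untreated and AP3-treated intervals were apart for any of the 7 genes in either genotype, whereas 16.8% of all genes had intervals apart in WT and 3.70% in knockout DCs. The propagated range lay off 0 for none of the 7 in WT DCs and for 1 in GEF-H1-/- DCs (*Nos2*), beside 30.1% and 8.97% of all genes. The comparisons share groups with each other, so each is given with its own values.

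Between genotypes, none of the 7 genes passed 2-fold either, where 1.88% of all genes did so in untreated DCs (144 higher and 70 lower in GEF-H1-/-) and 4.06% in AP3-treated DCs (228 higher, 235 lower). The intervals were apart for 1 of 7 genes in untreated and for 1 of 7 in AP3-treated DCs, *Nos2* each time, beside 4.74% and 13.7% of all genes. The propagated range lay off 0 for 2 of 7 genes in untreated DCs (*Cybb* and *Nos2*) and for 3 of 7 in AP3-treated DCs (*Cybb*, *Ncf4* and *Nos2*), beside 10.0% and 26.0% of all genes. For the difference of drug effects (knockout minus WT), none of the 7 passed 2-fold, beside 1.90% of all genes, and none had a range off 0, beside 8.29% of all genes. The median of the 7 between genotypes was -0.03 in untreated and -0.12 in AP3-treated DCs, beside -0.01 and -0.03 over all genes. The differences of drug effect of the 7 genes lay between -0.14 and 0.06.

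**Figure D2:**
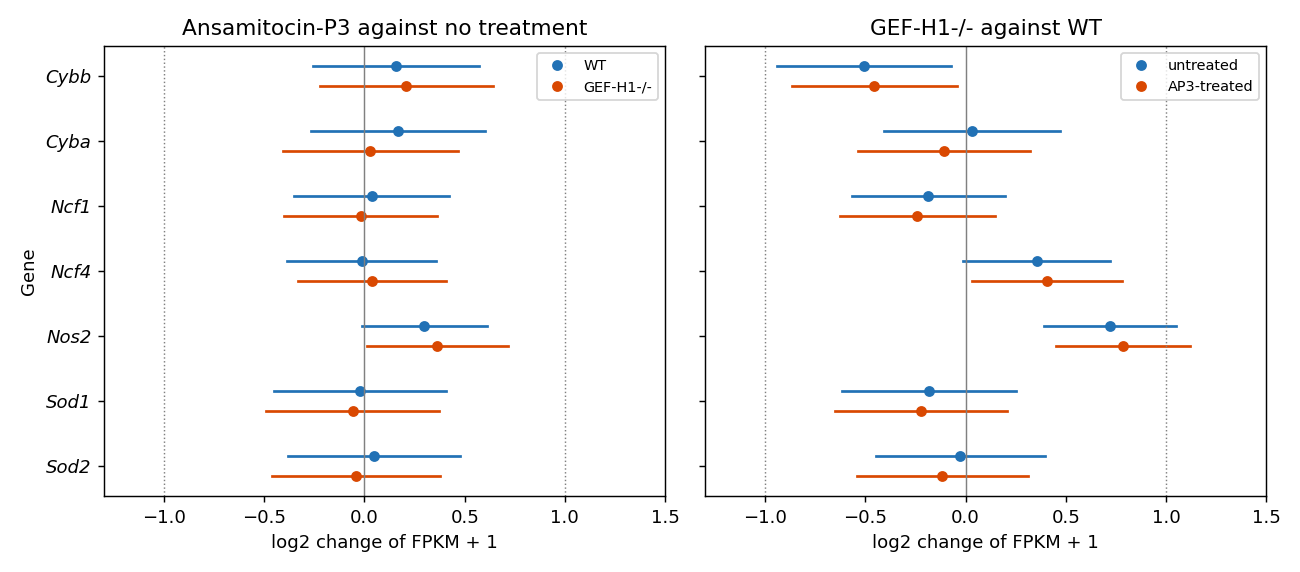
Log2 change of FPKM + 1 with ansamitocin-P3 in WT and GEF-H1-/- DCs (left) and in GEF-H1-/- against WT DCs, untreated and AP3-treated (right). Bars are 95% ranges propagated from the group intervals and dotted lines mark 2-fold. *Nos2* lies to the right in both genotype comparisons, at 0.72 and 0.79, and no point reaches a dotted line.

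*Cybb* encodes NOX2, the catalytic subunit that carries the flavin and heme groups of the oxidase (chromosome X, 9435252 to 9469324 in the table's coordinates, GRCm38, minus strand). It was at 73.6 FPKM (95% interval 57.3 to 88.8) in untreated WT, 82.1 (65.8 to 98.2) in AP3-treated WT, 51.4 (40.2 to 62.7) in untreated GEF-H1-/- and 59.6 (47.0 to 72.2) in AP3-treated GEF-H1-/- DCs. Both GEF-H1-/- values were below both WT values, but the intervals of GEF-H1-/- and WT DCs overlapped at each treatment. The GEF-H1-/- level was 0.699 of the WT level in untreated DCs, a log2 change of -0.51 (SE 0.22, 95% range -0.94 to -0.08), and 0.726 of it in AP3-treated DCs, a log2 change of -0.46. Only 2.91% of all genes tested had a lower log2 change between the untreated groups, and 11.3% between the AP3-treated groups. With the drug, *Cybb* had a log2 change of 0.16 in WT and 0.21 in knockout DCs, with overlapping intervals. The longest GENCODE M21 model of *Cybb* starts 18447 bases further 5′ than the table's locus. In bulk RNA, fewer cells that express *Cybb* and less *Cybb* RNA per cell cannot be told apart.

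*Cyba* encodes the small membrane subunit that stabilizes NOX2 and docks the *Ncf1* product (chromosome 8, 122424771 to 122432940, minus strand). It was at 624 FPKM (447 to 718) in untreated WT, 701 (481 to 772) in AP3-treated WT, 638 (454 to 729) in untreated GEF-H1-/- and 651 (458 to 736) in AP3-treated GEF-H1-/- DCs. All 4 intervals overlapped, and its log2 change was 0.17 with the drug in WT, 0.03 in GEF-H1-/- DCs, 0.03 between the untreated groups and -0.11 between the AP3-treated groups. Its FPKM sat nearer the upper bound of its interval, at 65.1% to 75.5% of the way up, and the FPKM of *Sod1* and *Sod2* sat at 66.9% to 74.8%. In the GENCODE M21 annotation the whole locus also lies inside *Gm20388* on the opposite strand, and whether strand was used in counting is not stated.

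*Ncf1* encodes the cytosolic organizer subunit, which is phosphorylated on activation and carries the cytosolic complex to the membrane (chromosome 5, 134220260 to 134229625, minus strand). Its FPKM was 231 (187 to 274) in untreated WT, 237 (191 to 282) in AP3-treated WT, 203 (165 to 241) in untreated GEF-H1-/- and 200.0 (162 to 238) in AP3-treated GEF-H1-/- DCs. The intervals overlapped throughout, with log2 changes of 0.04 and -0.02 for the drug in WT and GEF-H1-/- DCs, and of -0.19 and -0.24 for GEF-H1-/- against WT in untreated and AP3-treated DCs. In the GENCODE M21 annotation its locus shares 4096 bases with *Gtf2ird2* on the opposite strand, a gene at only 3.27 to 4.02 FPKM here.

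*Ncf4* encodes the cytosolic subunit that binds phosphatidylinositol 3-phosphate on phagosomes (chromosome 15, 78244811 to 78262580, plus strand). It was at 56.6 FPKM (46.2 to 67.0) in untreated WT, 56.0 (45.4 to 66.6) in AP3-treated WT, 72.7 (59.4 to 85.9) in untreated GEF-H1-/- and 74.6 (61.0 to 88.3) in AP3-treated GEF-H1-/- DCs. It differed between genotypes in the opposite direction to *Cybb*, both GEF-H1-/- values being above both WT values, and again the intervals overlapped at each treatment. The GEF-H1-/- level was 1.28 times the WT level in untreated DCs, a log2 change of 0.36 (95% range -0.01 to 0.72), and 1.33 times in AP3-treated DCs, a log2 change of 0.41 (0.03 to 0.78). The drug gave log2 changes of -0.01 in WT and 0.04 in knockout DCs.

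The opposite genotype differences of *Cybb* and *Ncf4* appear directly in the ratio of their levels. The ratio of *Ncf4* to *Cybb* FPKM was 0.769 (95% range 0.581 to 1.02) in untreated WT and 0.683 (0.519 to 0.897) in AP3-treated WT DCs, against 1.41 (1.06 to 1.88) in untreated and 1.25 (0.947 to 1.66) in AP3-treated GEF-H1-/- DCs. The ranges of GEF-H1-/- and WT DCs did not overlap at either treatment. This pair was singled out after its values were seen, and the ratio was not tested. The ratio of *Cyba* to *Cybb* was 8.48 and 8.54 in untreated and AP3-treated WT DCs and 12.4 and 10.9 in untreated and AP3-treated GEF-H1-/- DCs, with overlapping ranges. The ratio of *Ncf1* to *Cybb* was 3.14, 2.88, 3.94 and 3.36 in the same order, and that of *Ncf1* to *Ncf4* was 4.07, 4.22, 2.79 and 2.68, also with overlapping ranges.

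**Figure D3:**
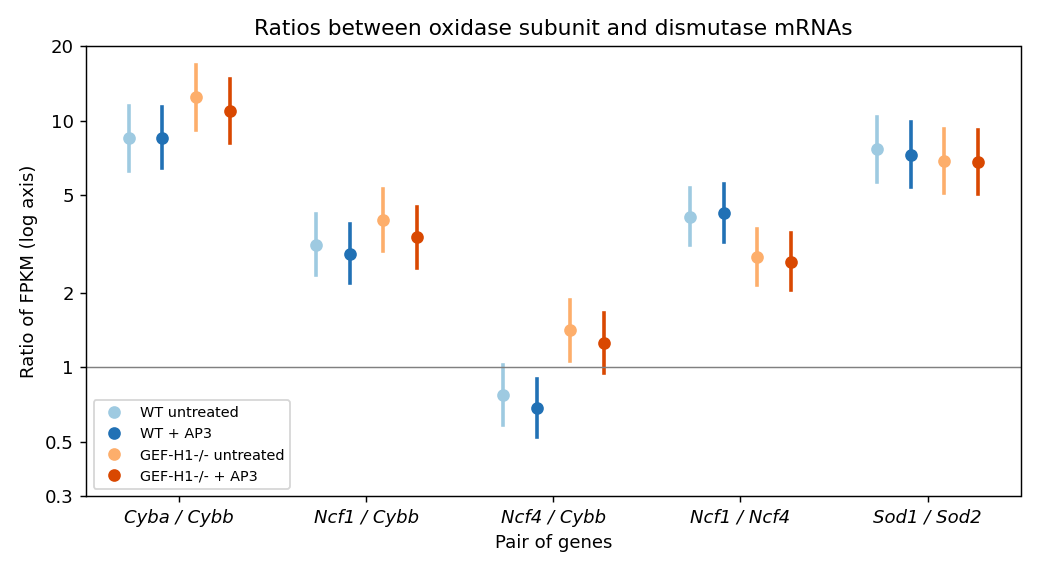
Ratios between the FPKM of pairs of oxidase subunit genes and of *Sod1* to *Sod2* in the 4 groups, on a log axis, with 95% ranges propagated from the intervals of both genes. *Ncf4* to *Cybb* lies below 1 in WT and above 1 in GEF-H1-/- DCs, and the ranges of the other pairs overlap between genotypes.

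Among 13 partners of the oxidase examined here (Rac GTPases, the chaperone gene *BC017643*, now *Cybc1*, the proton channel gene *Hvcn1*, and other NOX and DUOX genes), 4 passed the filter and none passed 2-fold in any comparison, beside 1.08% to 4.94% of all genes. The other 9 were under 1 FPKM in all groups, 5 of them listed at 0 in all, so among the catalytic subunits of the family that were measured, *Cybb* alone was over 1 FPKM. The median log2 change of the 4 was -0.03 with the drug in WT and -0.11 with it in knockout DCs. *Rac2*, *BC017643* and *Hvcn1*, as well as *Idh1*, *Prdx5* and *Sod3* further on, are named after their values were seen. *Rac1*, the highest of the partners, was at 286, 350, 264 and 277 FPKM in untreated WT, AP3-treated WT, untreated GEF-H1-/- and AP3-treated GEF-H1-/- DCs, and *Rac2*, the hematopoietic Rac, at 221, 217, 222 and 206 FPKM. *BC017643*, whose product NOX2 needs to mature, stayed between 34.0 and 36.6 FPKM. *Hvcn1*, whose channel balances the charge that the oxidase moves, was at 68.7 FPKM in untreated and 42.3 in AP3-treated WT DCs, with intervals apart (log2 change -0.69), and at 68.6 and 49.5 FPKM in untreated and AP3-treated GEF-H1-/- DCs, with overlapping intervals (-0.46, 95% range -0.85 to -0.08). Its drug effect in knockout minus that in WT DCs was 0.22 (-0.32 to 0.77), a range that spans 0.

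*Nos2* (chromosome 11, 78920859 to 78960124, plus strand) was low in all groups. It was at 0.943 FPKM (95% interval 0.655 to 1.23) in untreated WT, 1.39 (1.02 to 1.77) in AP3-treated WT, 2.20 (1.65 to 2.76) in untreated GEF-H1-/- and 3.12 (2.42 to 3.83) in AP3-treated GEF-H1-/- DCs. The levels thus ordered the groups by genotype first and by drug second, and at each treatment the GEF-H1-/- interval lay wholly above the WT interval. Among the genes tested its level lay at percentiles 3.26, 8.40, 12.1 and 17.8 in those groups.

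In untreated DCs the *Nos2* level of GEF-H1-/- cells was 2.34 times that of WT cells, and in AP3-treated DCs 2.24 times. On the scale of log2(FPKM + 1) these were changes of 0.72 (SE 0.17, 95% range 0.39 to 1.05) and 0.79 (0.45 to 1.12), both short of 2-fold on a scale where the added 1 FPKM is close to the WT level itself. With 0.1 FPKM added in place of 1, the changes were 1.14 and 1.11, both past 2-fold, and with 5 FPKM added they were 0.28 and 0.35. The direction was the same under each. In size, the change between the untreated groups exceeded that of 96.5% of all genes tested and the change between the AP3-treated groups that of 92.1%.

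With the drug, the *Nos2* level was 1.47 times the untreated level in WT and 1.42 times in knockout DCs. The log2 changes were 0.30 (95% range -0.01 to 0.61) and 0.36 (0.01 to 0.72), and the untreated and AP3-treated intervals overlapped in both genotypes. The drug effect of knockout minus that of WT DCs was 0.06 (-0.40 to 0.53) and turned to -0.03 with 0.1 FPKM added, so no direction can be given for it. The range leaves room for a drug effect larger in knockout DCs by up to 0.53 or smaller by up to 0.40 on the log2 scale.

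*Nos2* was, of the 7 genes, the only gene whose highest and lowest group differed by over 1 on the scale of log2(FPKM + 1), by 1.08. With 5 FPKM added in place of 1, this difference was 0.45 for *Nos2* and 0.63 for *Cybb*, so which gene varied more depends on the scale. Among 8894 other genes that reached 5 FPKM in some group, the profiles nearest to it over the 4 groups were those of *Idi1*, *Cttn* and *Sc5d*, at Euclidean distances of 0.12, 0.13 and 0.13 between centred log2 values. *Idi1*, an enzyme gene of isoprenoid synthesis, was at 33.1, 40.4, 56.8 and 78.4 FPKM in untreated WT, AP3-treated WT, untreated GEF-H1-/- and AP3-treated GEF-H1-/- DCs. With 0.1 FPKM added in place of 1, the range of *Nos2* was 1.63, and the nearest profiles were not searched again on that scale. With only 4 points per profile, such likeness is a description.

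Markers of other cell types differed between the genotypes alongside these genes. Neutrophil granule genes *Camp*, *Ltf* and *Ngp* fell in GEF-H1-/- DCs, with log2 changes of -3.57, -1.46 and -1.28 in untreated and -3.37, -1.63 and -1.68 in AP3-treated DCs. Of the 9 neutrophil markers, 3 fell and 2 rose (*Mpo* and *Csf3r*) in untreated GEF-H1-/- against WT DCs. *Elane* was past 2-fold there as well, at 20.7 FPKM (0 to 93.1) in WT and 45.9 (0 to 152) in GEF-H1-/- DCs, but its intervals overlapped and began at 0, its 95% range was -2.76 to 4.99, and its locus in the table is a merged span that *Gpx4* shares, so no direction is given for it. In AP3-treated DCs 4 fell, *S100a8* being the fourth, and 2 rose (*Mpo* and *Csf3r*). Mast cell and basophil markers summed to 107 and 109 FPKM in untreated and AP3-treated WT and to 198 and 190.0 in untreated and AP3-treated GEF-H1-/- DCs, where *Fcer1a* rose by 2.25 and 2.57. The sum of 5 macrophage markers was between 152 and 190 FPKM in WT and between 214 and 233 FPKM in knockout DCs, and that of 4 lymphocyte markers from 4.45 to 8.86 FPKM in all. No marker in these lists was at 0 in all groups. The part of these cells in the genotype differences of *Nos2*, *Cybb* and *Ncf4* was not tested.

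Around *Nos2*, which did not pass the limit, *Slc7a2*, *Arg2* and *Gch1* rose with the drug in WT DCs. Of 15 measured genes of nitric oxide and arginine metabolism 12 passed the filter, of which these 3 rose and none fell in WT DCs, where 4.94% of all genes passed 2-fold, and none passed it in GEF-H1-/- DCs, where 1.08% did. The other genes of arginine uptake, arginine breakdown and cofactor synthesis were short of the limit in WT DCs, with log2 changes of 0.13 for *Slc7a1*, 0.61 for *Arg1*, -0.06 for *Pts*, -0.18 for *Spr*, -0.39 for *Qdpr* and -0.36 for *Gchfr*. The remaining *Ddah2*, *Ass1* and *Asl* were higher in AP3-treated WT DCs by 0.91, 0.54 and 0.52, also short of the limit. Intervals were apart for *Ddah2* and overlapped for *Ass1* and *Asl*. The median of the 12 was 0.53 with the drug in WT and 0.16 with it in knockout DCs, on the log2 scale. *Arg2*, the mitochondrial arginase that competes for arginine, was at 6.75 FPKM in untreated and 40.0 in AP3-treated WT DCs, a log2 rise of 2.40, and at 8.93 and 9.91 FPKM in untreated and AP3-treated GEF-H1-/- DCs (0.14). *Slc7a2*, an arginine transporter gene, rose in WT DCs from 24.2 to 79.7 FPKM (1.68) and was at 44.3 and 71.1 FPKM in knockout DCs (0.67). *Gch1*, the first enzyme of tetrahydrobiopterin synthesis, rose in WT DCs from 10.3 to 21.7 FPKM, just past the limit at 1.01, and was at 6.75 and 8.93 FPKM in GEF-H1-/- DCs (0.36).

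*Arg2* and *Gch1* were the 2 genes of this list that were lower past 2-fold in AP3-treated GEF-H1-/- than in AP3-treated WT DCs, and *Arg2* and *Slc7a2* were the 2 whose drug effect differed past 2-fold. Between the untreated groups no gene of the list passed 2-fold, although the intervals of *Slc7a2* were apart there, with a log2 change of 0.85. *Slc7a2* was thus higher in untreated GEF-H1-/- DCs, as *Nos2* was, while *Gch1* was lower there with overlapping intervals. This likeness to *Nos2* did not hold in AP3-treated DCs. There *Slc7a2* was at 71.1 FPKM in GEF-H1-/- and 79.7 in WT DCs (-0.16, overlapping intervals), whereas *Nos2* was higher in GEF-H1-/- DCs (0.79, intervals apart). *Arg1*, the cytosolic arginase and the highest of the list, was at 310, 474, 382 and 435 FPKM in untreated WT, AP3-treated WT, untreated GEF-H1-/- and AP3-treated GEF-H1-/- DCs.

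*Sod1*, the copper and zinc enzyme of the cytosol (chromosome 16, 90220742 to 90226324, plus strand), was at 234 FPKM (164 to 263) in untreated WT, 230 (158 to 254) in AP3-treated WT, 205 (144 to 232) in untreated GEF-H1-/- and 197 (137 to 221) in AP3-treated GEF-H1-/- DCs. Its log2 change was -0.02 with the drug in WT, -0.06 in GEF-H1-/- DCs, -0.18 between the untreated and -0.22 between the AP3-treated groups, and all 4 intervals overlapped. Its locus shares 645 bases with *Scaf4* on the opposite strand, which was at 13.1 to 14.6 FPKM.

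*Sod2*, the manganese enzyme of mitochondria (chromosome 17, 13007839 to 13018119, plus strand), was at 30.5 FPKM (21.4 to 34.5) in untreated WT, 31.6 (22.4 to 36.1) in AP3-treated WT, 30.0 (20.5 to 33.2) in untreated GEF-H1-/- and 29.1 (20.2 to 32.6) in AP3-treated GEF-H1-/- DCs. Its log2 change was 0.05 (95% range -0.38 to 0.48) with the drug in WT and -0.04 (-0.46 to 0.38) in knockout DCs, so a 2-fold change lay outside both ranges. Between the genotypes it was -0.03 in untreated and -0.12 in AP3-treated DCs. The table's locus ends 21944 bases short of the longest GENCODE M21 model at the 3′ end, and transcripts with that longer end may not be counted in full. The ratio of *Sod1* to *Sod2* FPKM was 7.65, 7.28, 6.85 and 6.78 in untreated WT, AP3-treated WT, untreated GEF-H1-/- and AP3-treated GEF-H1-/- DCs, with overlapping ranges.

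*Sod2* and *Nos2* stayed short of 2-fold with the drug in the same libraries in which some genes for their usual regulators rose. Of 13 genes of the regulator list that passed the filter, 6 rose with the drug in WT and 2 in knockout DCs, and none fell. Beside them, 4.94% and 1.08% of all genes passed 2-fold, and the medians of the 13 were 0.47 and 0.38. The list also holds cytokine genes, and *Il1b* is counted among both the 6 and the 2. The NF-kappaB subunit genes *Nfkb1*, *Rela* and *Rel* rose in WT DCs by 1.03, 1.22 and 1.13 on the log2 scale and had values of 0.38, 0.66 and 0.77 in GEF-H1-/- DCs, short of the limit. *Il1b*, an NF-kappaB target, rose by 3.21 to 242 FPKM in WT and by 1.26 to 56.2 FPKM in knockout DCs. *Cebpb* rose in WT DCs by 1.72, from 92.2 to 305 FPKM, and was at 137 and 187 FPKM in GEF-H1-/- DCs (0.45), but all 4 values lay above the upper bounds of their intervals (83.8, 248, 118 and 162 FPKM), so its error is unknown. *Irf8*, a lineage factor of DCs and a known activator of *Cybb*, rose in both genotypes, by 2.31 to 96.8 FPKM in WT and by 2.01 to 103 FPKM in knockout DCs, whereas *Cybb*, as given above, had log2 changes of 0.16 and 0.21. The messages of regulators are not a measure of their activity.

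Downstream of the dismutases, 18 genes for removal of superoxide and peroxide passed the filter, of which 3 rose and none fell with the drug in WT DCs, where 4.94% of all genes passed 2-fold, and none passed it in GEF-H1-/- DCs, where 1.08% did. The median log2 change of the 18 was 0.11 in WT and -0.03 in knockout DCs. The 3 were *Srxn1*, *Txnrd1* and *Prdx1*, which encode sulfiredoxin, cytosolic thioredoxin reductase and a cytosolic peroxiredoxin. *Srxn1* rose in WT DCs from 28.1 to 102 FPKM (1.83) and was at 37.2 and 58.4 FPKM in knockout DCs (0.64). *Txnrd1* rose in WT DCs from 70.9 to 205 FPKM (1.52) and was at 69.9 and 102 FPKM in knockout DCs (0.54). *Prdx1* was at 361 and 723 FPKM in WT DCs, just past the limit, and at 413 and 477 in GEF-H1-/- DCs (0.21). *Srxn1* was also the gene of the list whose drug effect was smaller past 2-fold in GEF-H1-/- DCs. *Gpx1*, the highest of the list, was at 858, 1031, 893 and 928 FPKM in untreated WT, AP3-treated WT, untreated GEF-H1-/- and AP3-treated GEF-H1-/- DCs.

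Between genotypes, *Sod3*, the extracellular superoxide dismutase, was the only gene of this list past 2-fold. It was at 0.525 FPKM (0.282 to 0.758) in untreated WT and 0.596 (0.303 to 0.888) in AP3-treated WT DCs, and at 2.48 (1.62 to 3.34) in untreated and 2.88 (1.93 to 3.53) in AP3-treated GEF-H1-/- DCs. The GEF-H1-/- intervals lay wholly above those of WT DCs, and the log2 changes were 1.19 and 1.28. *Sod3* was under 1 FPKM in both WT groups and passed the filter only through the GEF-H1-/- groups. A gene that low in WT DCs could be tested only if it was higher in GEF-H1-/- DCs, so its difference is no parallel to that of *Nos2*. *Sod1* and *Sod2* had overlapping intervals between the genotypes. *Prdx5* ran the other way, at 632 and 723 FPKM in untreated and AP3-treated WT DCs and at 429 and 413 in untreated and AP3-treated GEF-H1-/- DCs, with intervals apart for the AP3-treated groups (-0.81). Between the AP3-treated groups, 14 of the 18 genes were lower in GEF-H1-/- DCs and 4 were higher. Intervals were apart for 4 of the lower genes and 1 of the higher. Besides *Prdx5*, those lower were *Txnrd1* (-0.99, just short of the limit), *Srxn1* (-0.80) and *Prdx1* (-0.60).

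NADPH, the electron donor of both the oxidase and iNOS, comes from the pentose phosphate pathway, isocitrate dehydrogenases and malic enzymes. None of 9 measured genes of NADPH supply passed 2-fold in any comparison, beside the same 1.08% to 4.94% of all genes, and their median change with the drug was -0.26 in WT and -0.11 in knockout DCs. *Pgd*, the highest of them and an enzyme of the pentose phosphate pathway, was at 242, 341, 267 and 280 FPKM in untreated WT, AP3-treated WT, untreated GEF-H1-/- and AP3-treated GEF-H1-/- DCs. *Idh1*, the cytosolic isocitrate dehydrogenase, was at 59.9 FPKM in untreated and 31.6 in AP3-treated WT DCs, with intervals apart (-0.90), and at 69.7 and 48.7 FPKM in untreated and AP3-treated GEF-H1-/- DCs, with overlapping intervals (-0.51, 95% range -0.90 to -0.12). Its drug effect in knockout minus that in WT DCs was 0.39 (-0.17 to 0.95), a range that spans 0.

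**Figure D4:**
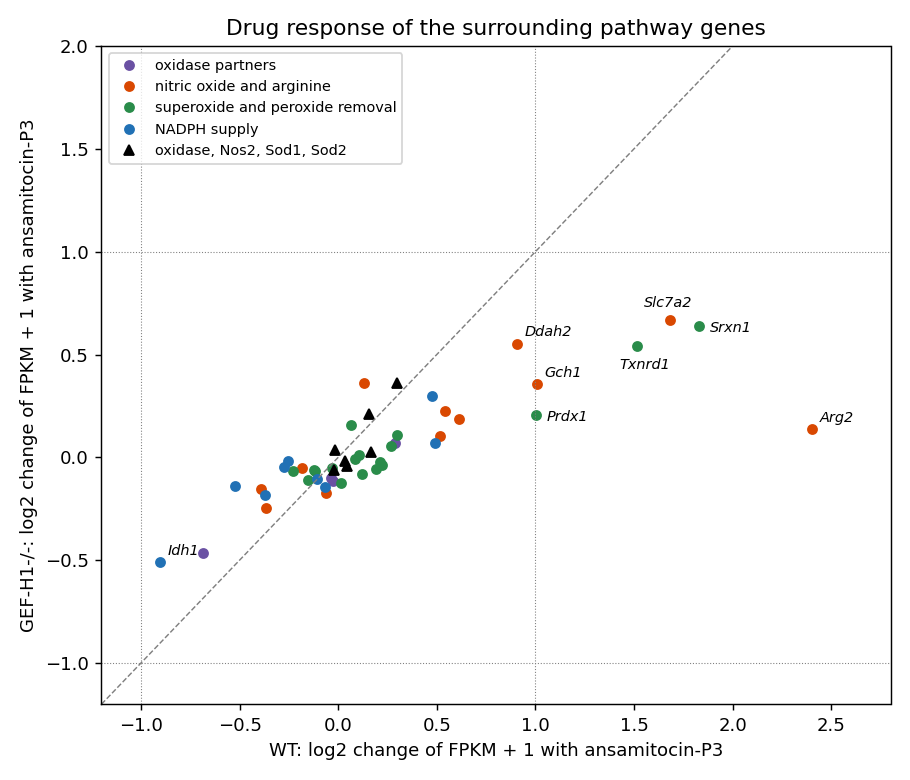
Log2 change of FPKM + 1 with ansamitocin-P3 in WT DCs (horizontal) against that in GEF-H1-/- DCs (vertical) for genes of the surrounding pathways. Dotted lines mark 2-fold and the dashed line equal change. The 7 genes (triangles) lie between -0.06 and 0.36 on both axes, while *Arg2*, *Srxn1*, *Slc7a2* and *Txnrd1* lie past 2-fold on the horizontal axis and short of it on the vertical axis.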

How the data were processed

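The 8 libraries (2 per group) were strand-specific and paired-end. From them the authors computed FPKM with Cuffdiff (version 1.05 and build mm10 per the submitters' processing notes). The deposited table holds 1 FPKM per gene and group with a 95% interval and a status. The aligner and annotation of this table, and whether strand was used in counting, are not given in the sources used here. Column names gave the groups, and those of WT cells, which name no genotype, were assigned by elimination. There were 0 unused columns of per-sample values. Sequencing depth behind a value is unknown, since FPKM does not keep it. Column sums of FPKM ran from 599331 to 739523.

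Of 23356 genes, 107 without a status of OK in all groups were left out, and 11397 reached 1 FPKM in at least 1 group. Log2 ratios of the deposited FPKM + 1 were computed for the drug in each genotype, for genotype at each treatment and for the difference between drug effects. SEs were propagated from the half-widths of the deposited intervals by the delta method, treating groups as independent. No test across samples can be run on 1 value per group. The computation was tested on simulated data whose base levels were at least 5 FPKM and whose intervals matched their errors. That test does not cover base levels as low as those of *Nos2* and *Sod3*, or an FPKM outside its own interval. The 7 genes and the 10 gene lists were chosen with earlier results of these data known. In the lists, 5 symbols, *Cybc1* (analysed as *BC017643*) among them, were not matched and were not analysed under those names, and 1 further gene is not reported here. All 7 genes and *Arhgef2* are named. From the lists, named genes were those past 2-fold in a comparison with at least 5 FPKM in a group and the highest of each list, and, for a gene of the 7 that varied by over 1 across groups, the 3 nearest profiles. For the marker lists and for smaller groups of genes only examples are given. Alternatives were pseudocounts of 0.1 and 5 FPKM, no filter or 5 FPKM, rescaling by median ratios, intervals also apart, and a 1.5-fold limit. Promoters came from RefSeq (GRCm38.p6) and overlaps from GENCODE M21 (GRCm38). Python 3.11.15, pandas 2.3.3, numpy 2.4.6 and scipy 1.17.1 were used.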

Additional observations from a re-analysis of the deposited data

How the results depend on the processing

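Of 170 log2 changes of the 7 genes recomputed under the alternatives, 163 moved by less than their SE and 7 moved by more, all 7 of *Nos2*. The 170 include values under no filter and under a filter of 5 FPKM. A filter does not enter a log2 change, so those values were bound to stay the same and say nothing about stability. The sign differed only for the difference of *Nos2* drug effects, which ran from -0.03 to 0.07. The GEF-H1-/- against WT change of *Nos2* ran from 0.28 to 1.14 in control and from 0.35 to 1.11 in treated DCs, and a filter of 5 FPKM left *Nos2* out. The number of the 7 genes past the limit went from 0 to 1 (*Nos2*) in each genotype comparison with a pseudocount of 0.1 FPKM and with a 1.5-fold limit. It stayed at 0 under all other alternatives and comparisons, but changing the filter or requiring intervals apart could not have raised it.

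Counts over all genes moved by over 1.5 times under the following settings. With 0.1 FPKM added, 389 fell with the drug in WT, 150 rose and 62 fell in GEF-H1-/- DCs, 239 were higher and 133 lower in GEF-H1-/- than in WT controls, 436 and 365 in treated DCs, and 163 had a higher drug effect in GEF-H1-/- DCs. With 5 FPKM added, the counts higher and lower were 271 and 47 for the drug in WT, 59 and 18 in GEF-H1-/-, 62 and 39 between controls, 79 and 127 between treated groups, and 32 and 91 for the difference. With a 1.5-fold limit they were 1101 and 916, 317 and 137, 364 and 236, 835 and 852, and 385 and 550 in the same order. Requiring intervals apart left 3 that fell in GEF-H1-/- DCs. Of 340 counts in the lists, 308 stayed within 1.5 times.

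No paired analysis was possible because the table holds 1 pooled value per group, and leaving out a replicate could not be run for the same reason. The spread between duplicates is therefore unknown for every value. Low FPKM limits *Nos2* and *Sod3* most.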
